A study of Mus musculus with 24 samples.

Results

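The genes described here are those of the DNA damage checkpoint and of homologous recombination. The 35 genes were listed by symbol, and each was read from its brightest probe set on average. A probe set is a group of short array probes to 1 transcript. Of the 35 genes, 33 had such a probe set, among 18193 genes measured in all, and Xrcc2 and Rbbp8 were not analysed here. They fall into 5 roles: 10 genes of damage sensing and the checkpoint kinases, 5 of the BRCA1 and BRCA2 complexes, 5 recombination factors (Rad51ap1, Rad51c, Rad54l, Rad54b and Xrcc3), 8 of the Fanconi anaemia pathway, and 5 of end resection, junction processing and mismatch recognition.

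As background, broken or stalled DNA is sensed by the kinases ATM and ATR, which act through the effector kinases CHK2 and CHK1 to stop the cell cycle. Homologous recombination then repairs the break from the sister chromatid: the end is cut back, the BRCA complexes promote pairing with the intact copy, and helicases and nucleases resolve the joined molecules. Because a sister chromatid exists only after replication, many of these genes are transcribed mainly in dividing cells, and a number of them are known targets of the E2F transcription factors, which the retinoblastoma protein Rb holds in check. In the small intestine cells divide in the crypts, and the villi carry differentiated cells that have left the cycle.

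The RNA came from crypts and from villi of the small intestine of C57BL/6;FVB mice, 2 months old. All mice, the wild types included, had been given an intraperitoneal injection of beta-naphthoflavone 7 days before, a compound used to switch on Cre recombinase from an inducible promoter in gut epithelium. The promoter and the cells in which the deletions took place are not stated in the labels. There were 4 genotypes: wild type (WT), Rb-/- (Rb), E2f1-/-, E2f2-/- and E2f3-/- together (TKO, E2f1, E2f2 and E2f3 lost), and those 3 together with Rb-/- (QKO). With crypts and villi of each genotype this made 8 groups of 3 arrays, 24 in all. No label says that the 3 arrays of a group are separate animals, so p-values measure the spread between these samples, which may be technical. Levels below are deposited log2 values, on which a difference of 1 is a doubling, and levels of different genes are not compared because each has its own probes. In whole crypts or villi, fewer cells of a type and less RNA per cell cannot be told apart.

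The labels were checked against the targeted genes. Rb1 read 10.70 to 10.93 in WT villi, 8.84 to 9.36 in Rb villi, 9.71 to 10.38 on the 6 TKO arrays and 8.13 to 8.77 on the 6 QKO arrays. In crypts it read 10.31, 10.59 and 8.46 on the arrays labelled WT crypts and 8.23, 10.25 and 8.87 on those labelled Rb crypts, so WT crypts 3 and Rb crypts 2 went against their labels, and results that use these groups are given with and without them. E2f2 read 9.0 to 9.59 on the 6 WT and Rb crypt arrays and 7.94 to 8.52 on the 6 TKO and QKO crypt arrays. The brightest probe sets of E2f1 and E2f3 overlapped between the same arrays. The second probe sets of E2f1 (6.98 to 7.53 against 6.49 to 6.95) and E2f2 (5.56 to 5.72 against 4.03 to 5.02) did not overlap there. The third of E2f1 and the second of E2f3 did. In villi every probe set of the 3 genes overlapped, the brightest of E2f2 at 7.24 to 8.93 against 7.12 to 8.08. So no reading here checks the E2f labels of the villus arrays. Where these probes lie relative to the deleted parts is not given, so an overlap does not go against a label either. The mean of 15 bacterial poly-A control probe sets, which report RNA spiked in before labelling, was 5.01 to 6.25 on the 12 WT and Rb arrays and 8.28 to 10.06 on the 12 TKO and QKO arrays. Any difference in handling between these sets cannot be told apart from the loss of the 3 E2f genes. The comparisons of Rb with WT and of QKO with TKO stay inside 1 set. In villi, however, the controls did not overlap between TKO (8.96 to 9.15) and QKO (9.64 to 10.06). QKO villi also lay above QKO crypts (8.28 to 8.90). Whether handling differed between these groups was not tested. By the Y-linked Eif2s3y, WT groups and Rb crypts held 0 male samples, Rb villi, TKO villi and TKO crypts 2 each, and both QKO groups 3.

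The promoters of the genes were searched for letters of the kind E2F proteins bind. RefSeq windows on GRCm38.p6, each 300 bases from 250 before to 50 after a start site, matched 27 of the 33 genes by symbol, the other 6 being Rad54b, Fancd2, Exo1, Rad50, Nbn and Tipin. A long form (TTTCCCGC, TTTGGCGC, TTTCGCGC or TTTGCCGC, either strand) stood in the windows of 9 of the 27 genes (33.3%), against 3.81% of 14452 measured genes with a window. The short form, the same letters without the first T and so contained in the long one, stood in 18 of the 27 (66.7%) against 16.0%. The CCAAT box was found in 16 (59.3%) against 42.0%, and TTTGAA, the core letters of the CHR element of mitotic genes, in 2 (7.41%) against 15.7%. Mean GC content was 60.2% over the windows of these genes and 58.4% in those of the measured genes. These are counts of letters, with no test, and a match is not a bound site. Stretches of 200 bases ending at the start site are shown for 5 genes whose villus patterns differ, with the E2F-type letters in capitals: Brca2 (chr5:150522421-150522620, + strand) and Topbp1 (chr9:103305127-103305326, + strand), higher in villi of all 3 mutant genotypes and lower in QKO than in Rb villi; Rad51c (chr11:87404955-87405154, - strand), higher in Rb villi alone by the test against WT; Chek2 (chr5:110839783-110839982, + strand) and Blm (chr7:80534999-80535198, - strand), higher in villi of all 3 mutant genotypes with no call between QKO and Rb.
Brca2: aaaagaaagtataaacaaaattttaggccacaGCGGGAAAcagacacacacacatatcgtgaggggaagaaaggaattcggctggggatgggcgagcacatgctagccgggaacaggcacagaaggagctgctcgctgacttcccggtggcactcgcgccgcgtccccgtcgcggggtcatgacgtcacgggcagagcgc
Topbp1: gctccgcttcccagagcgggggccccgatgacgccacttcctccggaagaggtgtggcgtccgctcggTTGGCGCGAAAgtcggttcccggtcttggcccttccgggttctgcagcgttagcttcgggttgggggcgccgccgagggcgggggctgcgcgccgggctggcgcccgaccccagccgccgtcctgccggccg
Rad51c: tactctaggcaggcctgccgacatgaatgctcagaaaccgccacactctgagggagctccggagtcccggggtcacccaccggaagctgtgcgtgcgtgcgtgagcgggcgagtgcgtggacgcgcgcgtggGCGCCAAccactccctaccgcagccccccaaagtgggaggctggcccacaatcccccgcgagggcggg
Chek2: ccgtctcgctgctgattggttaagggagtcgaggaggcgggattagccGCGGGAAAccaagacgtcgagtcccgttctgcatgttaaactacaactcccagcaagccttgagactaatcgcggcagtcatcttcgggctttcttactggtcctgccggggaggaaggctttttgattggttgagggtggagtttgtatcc
Blm: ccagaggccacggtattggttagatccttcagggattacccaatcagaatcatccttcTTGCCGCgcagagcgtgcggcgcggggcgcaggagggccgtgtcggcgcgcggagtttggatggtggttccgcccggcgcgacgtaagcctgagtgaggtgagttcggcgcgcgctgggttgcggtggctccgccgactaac
In Topbp1 a short and a long match on opposite strands overlap, and the Rad51c window holds a further TTTCCCGC match that begins at -5, runs past the start and is left in lower case. The short form stood in 15 of the 21 genes called higher in Rb villi (71.4%) and in 3 of the 6 not called (50%). It stood in 9 of the 11 called lower in QKO than in Rb villi (81.8%) and in 9 of the other 16 (56.3%).

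In WT mice these genes were higher in crypts than in villi. The median over the 33 genes was 7.38 to 7.43 on the 3 WT crypt arrays and 5.82 to 6.06 on the 3 WT villus arrays. A gene was called when its adjusted p, from limma over all genes with Benjamini-Hochberg adjustment, was under 0.05. By that rule 28 of the 33 were lower in WT villi and 0 higher, where 37.4% of all genes were called (18.8% higher, 18.6% lower). The median difference, villi minus crypts, was -1.41, against 0.08 over all genes. All 28 calls held without each single array in turn, and 28 were called lower without WT crypts 3 and Rb crypts 2 together, where 34.5% of all genes were called.

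**Figure D1:**
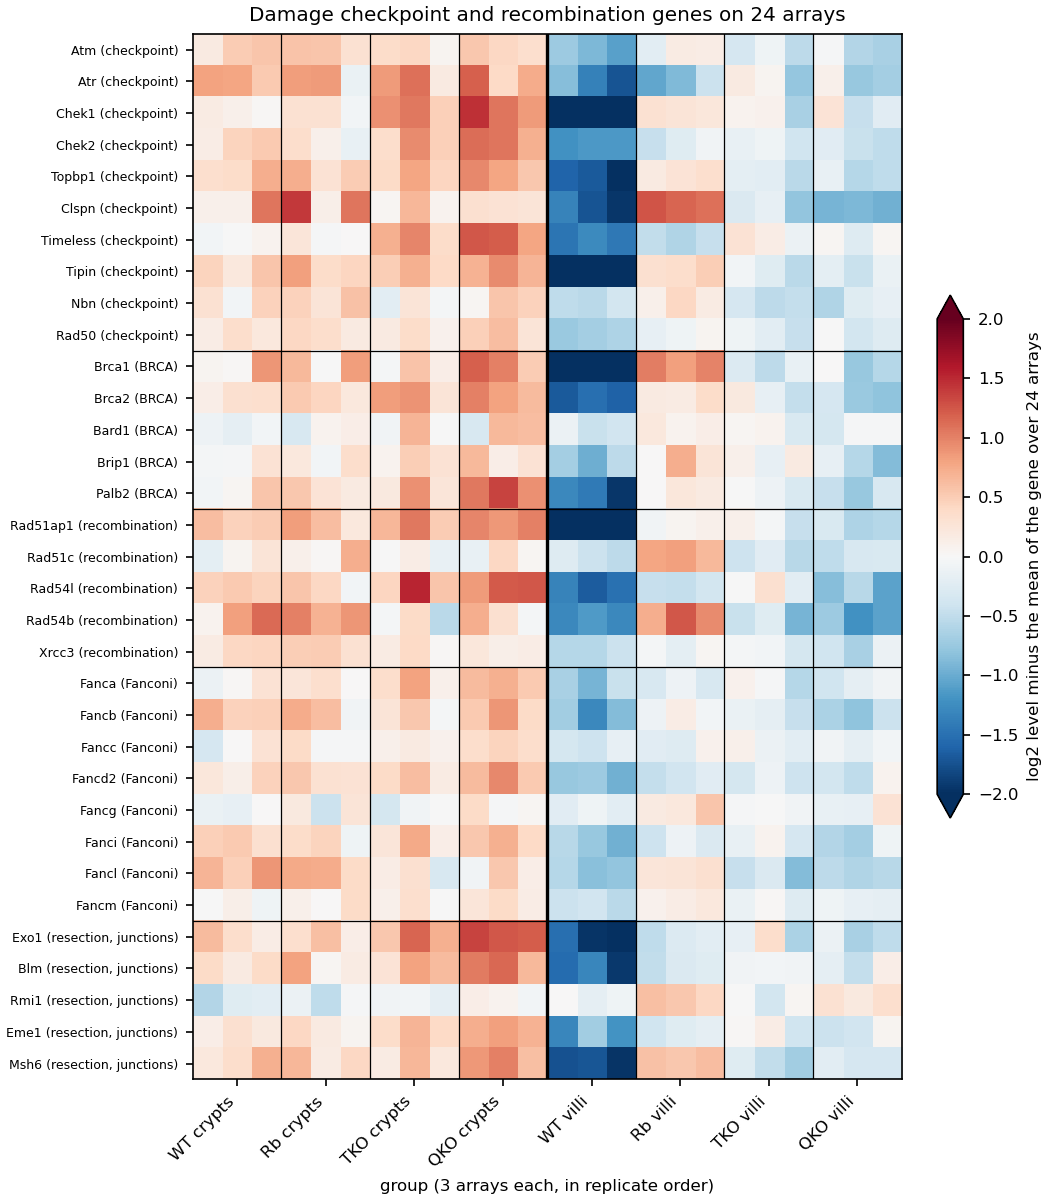
Level of each of the 33 genes (rows, grouped by role) on each of the 24 arrays (columns, 3 per group), as the log2 value minus the mean of that gene over all arrays, with red above and blue below that mean. Before centring, the medians over the genes were lowest for the WT villus columns (5.82 to 6.06). They were highest on average for the QKO crypt columns (7.89 to 8.08), although the highest TKO crypt column, at 7.96, lay within that range.

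Rad51ap1, which promotes pairing with the intact duplex, read 8.15, 8.0 and 8.05 in WT crypts and 5.45, 5.32 and 5.32 in WT villi. The groups lie far apart, and the difference of -2.70 ± 0.16 (SE) was the largest of the 33 (adjusted p = 5.32e-10). Tipin, the partner of Timeless in protecting stalled forks, fell by 2.50 ± 0.15, and Brca1, the ubiquitin ligase at the head of the recombination pathway, by 2.44 ± 0.25. All 10 checkpoint genes were lower in WT villi, as were 4 of 5 BRCA genes, 4 of 5 recombination factors, 6 of 8 Fanconi genes and 4 of 5 genes of resection and junctions. The 5 not called were Bard1 (-0.20 ± 0.22), Fancg (-0.08 ± 0.17), Fancc (-0.30 ± 0.15), Rad51c (-0.44 ± 0.17, adjusted p = 0.0527) and Rmi1. Rmi1, a partner of the BLM helicase, had the only positive difference (0.26 ± 0.14, adjusted p = 0.145). The summed level of 13 mitosis genes was 13.46 to 14.04 on the WT crypt arrays and 10.82 to 11.17 on the WT villus arrays, and the part of cell division in the difference was not tested.

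Loss of Rb was accompanied by higher levels of most of these genes in villi. The median over the 33 genes was 6.92 to 6.99 on the Rb villus arrays, above every WT villus array. Against WT, 26 of the 33 were higher in Rb villi and 0 lower, where 14.8% of all genes were called (8.59% higher, 6.19% lower). The median difference was 0.95, against -0.08 over all genes. The arrays of the 2 groups did not overlap for 31 of the 33 genes, Atr and Fancc being the exceptions. Over all genes they did not overlap for 7620 of 18193. Without each single array in turn 25 of the 26 calls held. Xrcc3, a recombination factor (0.46 ± 0.14, adjusted p = 0.0297), lost its call without WT villi 1 or 2 or Rb villi 1 or 3 and with sex as a term. Fancm and Rad50 lost theirs when the mean of their probe sets was used.

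**Figure D2:**
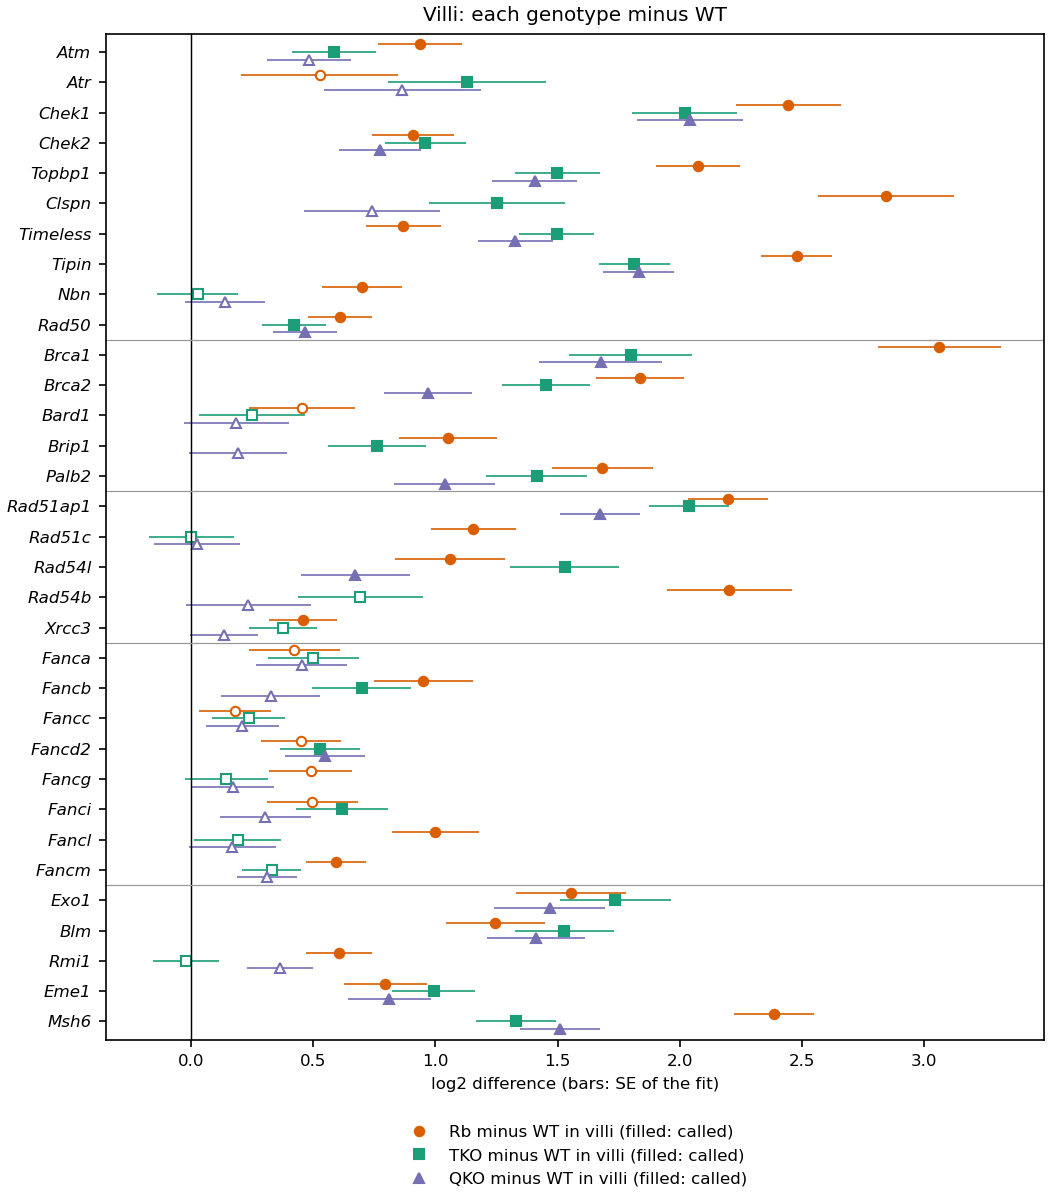
Log2 difference from WT villi of each of the 33 genes (rows, grouped by role) in Rb (circles), TKO (squares) and QKO villi (triangles), with bars of 1 SE and filled symbols for called genes. Filled symbols number 26 for Rb, 22 for TKO and 16 for QKO, and all lie to the right of 0. The 3 differences share the WT arrays.

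Among the checkpoint genes 9 of 10 were higher in Rb villi, with a median difference of 0.92. Clspn encodes claspin, the adaptor through which ATR activates CHK1. It read 6.43, 6.04 and 5.82 in WT villi and 9.03, 8.93 and 8.87 in Rb villi. The Rb arrays lie well above the WT arrays, a rise of 2.84 ± 0.28, or 7.18-fold (adjusted p = 2.69e-07). Tipin read 7.07, 7.05 and 6.94 in WT and 9.43, 9.46 and 9.60 in Rb villi, a rise of 2.48 ± 0.15 (5.57-fold). Chek1 itself read 5.79, 5.73 and 5.28 in WT and 8.08, 8.04 and 8.01 in Rb villi. Again the groups did not overlap, and Chek1 rose by 2.44 ± 0.22 (adjusted p = 7.93e-08).

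Topbp1, the activator of ATR, rose by 2.07 ± 0.17. The kinases at the head of the pathway had smaller differences. Atm read 6.96, 6.78 and 6.60 in WT and 7.47, 7.85 and 7.83 in Rb villi, a rise of 0.94 ± 0.17 with no overlap. Atr read 6.40, 5.91 and 5.53 in WT and 6.21, 6.38 and 6.83 in Rb villi. These ranges overlap, and the difference of 0.53 ± 0.32 was not called (adjusted p = 0.306, 95% interval -0.14 to 1.20). Chek2, the effector of ATM, read 6.41, 6.48 and 6.49 in WT and 7.17, 7.38 and 7.56 in Rb villi, a rise of 0.91 ± 0.17. Timeless rose by 0.87 ± 0.15, Nbn by 0.70 ± 0.16 and Rad50 by 0.61 ± 0.13, the last pair being parts of the complex that recruits ATM to breaks.

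Of the 5 BRCA genes 4 were higher in Rb villi, with a median of 1.68. Brca1 read 5.34, 5.38 and 5.07 in WT villi and 8.40, 8.20 and 8.37 in Rb villi. This rise of 3.06 ± 0.25, or 8.35-fold, was the largest of the 33 genes (adjusted p = 3.66e-08). Brca2 read 5.39, 5.56 and 5.45 in WT and 7.25, 7.23 and 7.43 in Rb villi, a rise of 1.84 ± 0.18 with groups far apart. Palb2, which links BRCA1 to BRCA2, rose by 1.68 ± 0.21, and the helicase gene Brip1 by 1.05 ± 0.20. Bard1, the partner that BRCA1 needs as a ligase, read 3.88 to 5.01 over all 24 arrays, below the median of all values (6.39), and its difference of 0.45 ± 0.22 was not called (adjusted p = 0.177).

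All 5 measured recombination factors were higher in Rb villi, with a median of 1.16. Rad54b, a DNA translocase of recombination, read 3.71, 3.87 and 3.71 in WT and 5.72, 6.24 and 5.94 in Rb villi. The Rb arrays are all higher, by 2.20 ± 0.26 on average, although Rad54b read below the median of all values (6.39) on all 24 arrays and its differences are between dim readings. Rad51ap1 rose by 2.20 ± 0.16, Rad51c by 1.16 ± 0.17 and Rad54l by 1.06 ± 0.22.

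The Fanconi genes, whose products find and unhook crosslinks between DNA strands, had the lowest median of the 5 roles. Of 8, 3 were higher in Rb villi, with a median of 0.49: Fancl, the ubiquitin ligase of the core complex (1.0 ± 0.18), Fancb (0.95 ± 0.20) and Fancm (0.59 ± 0.12). The substrates of FANCL, Fancd2 (0.45 ± 0.16, adjusted p = 0.068) and Fanci (0.50 ± 0.19, adjusted p = 0.081) were not called. Core complex genes Fancg (0.49 ± 0.17, adjusted p = 0.057), Fanca (0.42 ± 0.19) and Fancc (0.18 ± 0.15) were not called either. Fancc had the smallest difference of all 33.

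All 5 genes of resection, junctions and mismatch recognition were higher in Rb villi, with a median of 1.25. Msh6, which recognises mismatched bases, read 6.72, 6.76 and 6.5 in WT and 9.05, 9.0 and 9.08 in Rb villi. It rose by 2.39 ± 0.16, with no overlap. Exo1, a resection nuclease, rose by 1.55 ± 0.23 and the Blm helicase by 1.25 ± 0.20. Eme1, a subunit of a junction nuclease, rose by 0.80 ± 0.17 and Rmi1 by 0.61 ± 0.14.

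Genes of the dividing cell moved with these genes in Rb villi, and few markers of crypt cell types were called. Of 14 genes of the replication helicase and fork 14 were higher in Rb villi (median 2.11), and of 13 mitosis genes 13 (median 2.02). The summed level of the mitosis genes was 13.05 to 13.31 on the Rb villus arrays, against 10.82 to 11.17 in WT villi. Of 6 stem cell markers 0 were called, and their summed level was 12.41 to 12.76 in Rb and 11.98 to 12.49 in WT villi, against 13.47 to 13.80 in WT crypts. Of 5 Paneth cell markers 1 was lower, with sums of 14.65 to 15.01 in Rb and 14.63 to 15.01 in WT villi, against 15.97 to 16.23 in WT crypts. Of 10 enterocyte markers 0 were called, with sums of 17.28 to 17.33 in Rb and 17.37 to 17.45 in WT villi. Of 7 enteroendocrine markers 3 and of 5 endothelial markers 1 were lower. The array values have no true 0. The part of dividing cells in the rise of the repair genes was not tested.

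**Figure D3:**
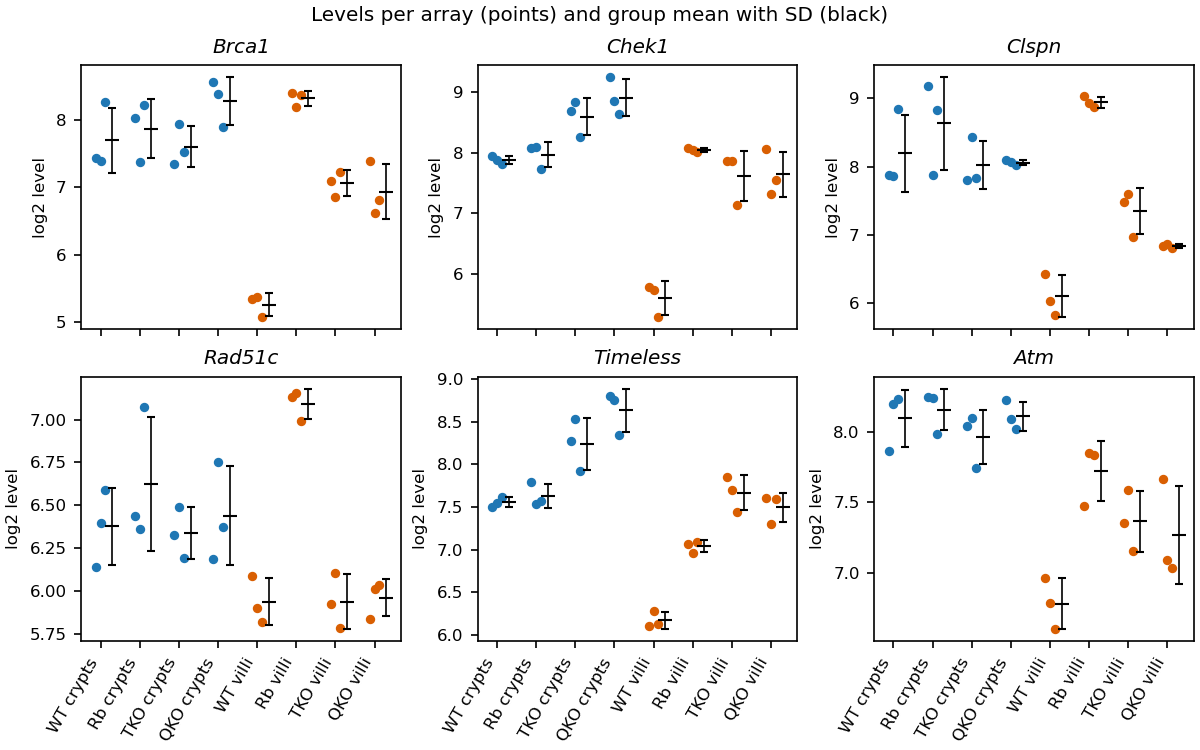
Log2 level of Brca1, Chek1, Clspn, Rad51c, Timeless and Atm on each array (points, crypts in blue and villi in orange) with the mean and SD of each group of 3 in black. In villi Brca1 reads 8.20 to 8.40 in Rb against 5.07 to 5.38 in WT, while Rad51c is high in Rb villi (6.99 to 7.15) and between 5.79 and 6.11 in the other 3 villus groups.

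Villi that had lost E2f1, E2f2 and E2f3 also had higher levels of most of these genes. The median over the 33 was 6.58 to 7.10 on the TKO villus arrays. Of the 33, 22 were higher than in WT villi and 0 lower, where 9.77% of all genes were called (6.21% higher, 3.57% lower). The median difference was 0.76, against -0.03 over all genes. Groups did not overlap for 26 of the 33 genes, and over all genes for 5669 of 18193. Of the 22 calls 15 held without each single array, and those of Atm, Atr, Brip1, Fancb, Fancd2, Fanci and Rad50 did not (adjusted p up to 0.0440 with all arrays). The lowest count without an array was 15.

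Rad51ap1 led the TKO villi: it read 5.45, 5.32 and 5.32 in WT and 7.63, 7.49 and 7.07 in TKO villi, a rise of 2.04 ± 0.16, or 4.10-fold (adjusted p = 6.55e-08). Chek1 read 7.86, 7.86 and 7.14 in TKO villi, a rise of 2.02 ± 0.22 over WT, and Tipin 9.05, 8.88 and 8.57, a rise of 1.81 ± 0.15. The third TKO array was the lowest for all 3 genes, yet above every WT array. Brca1, at 7.10, 6.85 and 7.23, rose by 1.80 ± 0.25 and Brca2, at 7.27, 6.91 and 6.58, by 1.45 ± 0.18. Timeless read 6.10, 6.28 and 6.12 in WT and 7.85, 7.71 and 7.44 in TKO villi, a rise of 1.5 ± 0.15. Chek2, at 7.48, 7.55 and 7.23, rose by 0.96 ± 0.17.

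By role, 9 of 10 checkpoint genes (median 1.19), 4 of 5 BRCA genes (1.41), 2 of 5 recombination factors (0.69), 3 of 8 Fanconi genes (0.41) and 4 of 5 genes of resection and junctions (1.33) were higher in TKO villi. Of the replication genes 14 of 14 were higher (median 1.76) and of the mitosis genes 11 of 13 (median 1.42), with mitosis sums of 11.82 to 12.54. Of the goblet cell markers 5 of 7 were lower, and of the stem cell markers 1 of 6 was higher. The sets WT with Rb and TKO with QKO differed in their spiked controls, as given above, and the part of this in the rise in TKO villi cannot be told apart.

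Some genes that were higher in Rb villi were close to WT in TKO villi. Rad51c read 6.09, 5.90 and 5.82 in WT, 7.13, 7.15 and 6.99 in Rb and 5.92, 6.11 and 5.79 in TKO villi. The TKO arrays lie among the WT arrays, with a difference of 0.00 ± 0.17 and a 95% interval of -0.36 to 0.37. Rmi1 differed by -0.02 ± 0.14, Nbn by 0.03 ± 0.16 and Fancl by 0.19 ± 0.18 between TKO and WT villi. The difference between Rb and TKO villi was not tested. The dimmer, second probe set of Rad51c gave 2.30 ± 0.25 in Rb and 0.74 ± 0.25 in TKO villi (adjusted p = 0.09 over all probe sets), so its TKO value is less close to 0.

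In villi 1 of these genes was called between QKO and TKO, which differ by Rb and share the set with high spiked controls. Those controls still read 9.64 to 10.06 in QKO and 8.96 to 9.15 in TKO villi, and the part of this was not tested. Between QKO and Rb, which differ by the 3 E2f genes and also by that set, 15 were called. The part of handling in the calls between QKO and Rb cannot be told apart from that of the E2f genes. Between QKO and TKO villi 1 of the 33 genes was called, where 6.68% of all genes were called (5.51% higher, 1.17% lower). By limma 5 of the 33 had an unadjusted p under 0.05, as did 3750 of all 18193 genes. The called gene, Rad54l, read 7.39, 7.72 and 7.18 in TKO and 6.55, 6.84 and 6.33 in QKO villi. The groups did not overlap (-0.86 ± 0.22, adjusted p = 0.0238), but the call was lost without TKO villi 1 or 2 or QKO villi 3. Chek1 differed by 0.02 ± 0.22 (95% interval -0.43 to 0.47), Tipin by 0.02 ± 0.15 (-0.28 to 0.32), Fancd2 by 0.02 ± 0.16 and Brca1 by -0.12 ± 0.25 (-0.65 to 0.40). The median difference was -0.12, against 0.04 over all genes. In this comparison 6 of 7 enteroendocrine, 4 of 7 goblet and 2 of 7 T cell markers were higher, and 1 of 13 mitosis genes was lower. Of the macrophage or MHC class II markers 2 of 8 were higher, and of the stroma or smooth muscle markers 2 of 8. Sums of the latter were 9.88 to 12.02 in QKO and 8.94 to 9.21 in TKO villi, which do not overlap.

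Between QKO and Rb villi 14 genes were lower and 1 higher, where 22.2% of all genes were called, 8.02% lower and 14.2% higher. The median was -0.39, against 0.08 over all genes. Clspn read 9.03, 8.93 and 8.87 in Rb and 6.84, 6.86 and 6.81 in QKO villi. It fell by 2.11 ± 0.28, with groups far apart (adjusted p = 2.22e-05). Rad54b, at 4.28, 3.79 and 3.93 in QKO villi, fell by 1.97 ± 0.26, and Brca1, at 7.39, 6.62 and 6.81, by 1.39 ± 0.25. Rad51c, at 5.84, 6.01 and 6.03, fell by 1.13 ± 0.17, and Brca2, at 6.72, 6.32 and 6.26, by 0.87 ± 0.18.

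**Figure D4:**
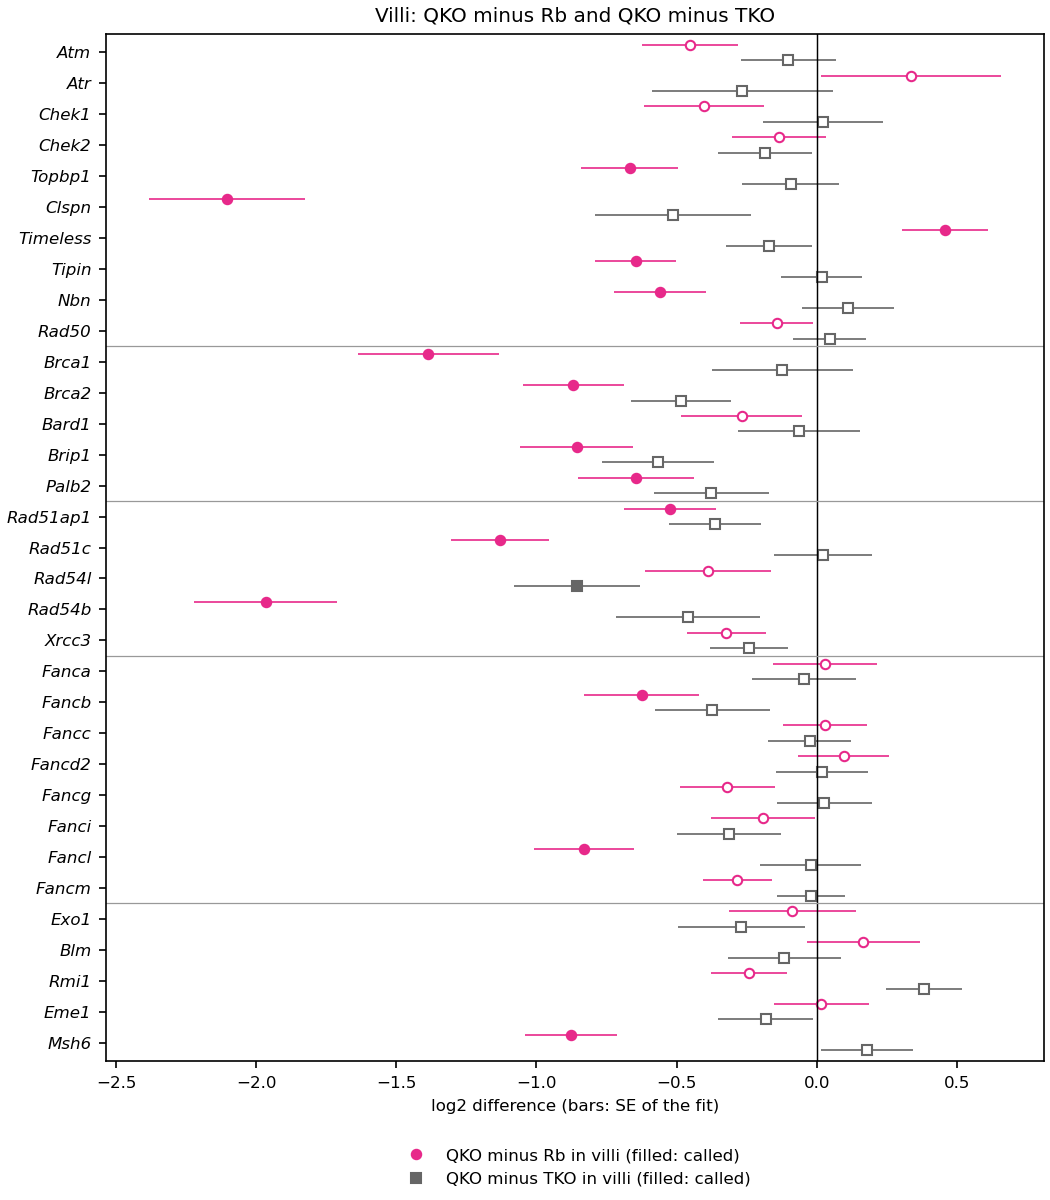
Log2 difference of each of the 33 genes (rows, grouped by role) for QKO minus Rb (circles) and QKO minus TKO villi (squares), with bars of 1 SE and filled symbols for called genes. QKO minus Rb reaches -2.11 for Clspn, while 32 of the 33 QKO minus TKO symbols are open. Both differences share the QKO arrays.

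By role, the calls of a lower level in QKO than in Rb took in 4 of 5 BRCA genes (median -0.86), 4 of 10 checkpoint genes, 3 of 5 recombination factors, 2 of 8 Fanconi genes and 1 of 5 genes of resection and junctions. Chek1 (-0.40 ± 0.22, adjusted p = 0.19) was not called by its brightest probe set, while the 2 next brightest were called lower (-0.61 and -0.89) and the other 2 were not. Eme1 differed by 0.02 ± 0.17 (95% interval -0.34 to 0.37), Fancc by 0.03 ± 0.15 and Blm by 0.17 ± 0.20. Timeless was the 1 gene called higher in QKO (0.46 ± 0.15, adjusted p = 0.0359): it read 7.07, 6.96 and 7.09 in Rb and 7.60, 7.30 and 7.59 in QKO villi. Its call was lost with arrays centred on their medians (0.28), with quantile normalization (0.35), when only these groups were fitted, and without any of Rb villi 1, 2 or 3 or QKO villi 1 or 3. Calls of Fancb, Nbn, Palb2 and Rad51ap1 were also lost without 1 array, and 10 of the 15 held without each. Against Rb villi 12 of 13 mitosis genes were lower in QKO and of the replication genes 8 of 14, with mitosis sums of 11.18 to 11.81. Of the enteroendocrine markers 6 of 7 and of the T cell markers 3 of 7 were higher, and of the goblet markers 5 of 7 lower. Of the stroma or smooth muscle markers 3 of 8 were higher (median 0.83), with sums of 9.88 to 12.02 in QKO and 8.56 to 9.65 in Rb villi, which do not overlap. The part of these cell types was not tested.

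Against WT villi 16 genes were higher in QKO and 0 lower, where 16.8% of all genes were called (11.6% higher, 5.21% lower). The median difference was 0.55, against 0.03 over all genes. Chek1, at 8.06, 7.32 and 7.55, was higher by 2.04 ± 0.22, Tipin by 1.83 ± 0.15 and Brca1 by 1.68 ± 0.25. Rad51c (0.03 ± 0.17, 95% interval -0.34 to 0.39) and Xrcc3 (0.14 ± 0.14) lay nearest to WT. Replication genes were higher in 13 of 14 cases (median 1.52) and mitosis genes in 6 of 13 (median 0.62). Enteroendocrine markers were higher in 6 of 7 cases (median 1.72), with sums of 14.27 to 14.99 against 12.66 to 13.31 in WT villi, and goblet markers lower in 2 of 7. Stroma or smooth muscle markers were higher in 1 of 8 cases, with sums of 9.88 to 12.02 against 8.88 to 9.13 in WT villi. Of the 16 calls 13 held without each single array, and those of Fancd2, Rad50 and Rad54l did not. Every QKO sample was male and every WT sample female. With sex as a term 12 genes were called, those of Chek2, Fancd2, Rad50 and Rad54l being lost.

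The villus calls made 10 patterns over the 33 genes. The rises in Rb, TKO and QKO villi over WT together with a lower level in QKO than in Rb were found for 7 genes: Brca1, Brca2, Msh6, Palb2, Rad51ap1, Tipin and Topbp1. The same rises without a call between QKO and Rb were found for Blm, Chek1, Chek2, Eme1, Exo1, Rad50 and Rad54l. Fancl, Nbn, Rad51c and Rad54b were called higher in Rb villi and lower in QKO than in Rb, with no call in TKO or QKO against WT. Bard1, Fanca, Fancc and Fancg had no call in any of these 4 comparisons. Fancm, Rmi1 and Xrcc3 were called in Rb against WT alone, and Atr and Fanci in TKO against WT alone. Brip1, Clspn and Fancb were higher in Rb and TKO than in WT villi and lower in QKO than in Rb. Of the last 3 genes, Timeless was higher in all 4 comparisons, Atm in Rb and TKO against WT, and Fancd2 in TKO and QKO against WT. The comparisons share arrays, so these patterns are a description.

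Whether the loss of Rb had the same effect with and without the loss of the 3 E2f genes could not be read from single comparisons, and the difference of differences was tested. It was taken as QKO minus Rb, minus TKO minus WT, which equals the effect of Rb loss in mice lacking the E2f genes minus that in mice holding them. It was below 0 for 25 of the 33 genes and above 0 for 0, where 15.4% of all genes were called (8.91% higher, 6.52% lower). The median was -1.09, against 0.12 over all genes. Clspn (-3.36 ± 0.39), Brca1 (-3.18 ± 0.36) and Rad54b (-2.66 ± 0.36) had the largest values, and Fancc (-0.21 ± 0.21) and Rmi1 (-0.22 ± 0.19) the smallest. Of the 25 calls 21 held without each single array. Those of Fanci, Fancm, Rad50 and Xrcc3 did not.

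In crypts fewer of these genes were called. Of the 33 genes 0 passed the test for the arrays labelled Rb against those labelled WT crypts, and 0 had an unadjusted p under 0.05. Over all genes 0% were called by limma, with 709 at an unadjusted p under 0.05. The median was 0.08, against 0.00 over all genes. Chek1 differed by 0.08 ± 0.22 (95% interval -0.37 to 0.53) and Brca2 by 0.13 ± 0.18 (-0.24 to 0.50). Values nearest to 0 were those of Eme1 (0.01 ± 0.17) and Msh6 (-0.01 ± 0.16).

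Clspn and Brca1 followed the Rb1 readings rather than the labels, but not every gene that rose in Rb villi did. Clspn read 7.87, 7.86 and 8.84 on the arrays labelled WT crypts and 9.18, 7.88 and 8.83 on those labelled Rb crypts. Thus the array labelled WT crypts 3 read with the Rb arrays and the array labelled Rb crypts 2 with the WT arrays. Brca1 read 7.43, 7.40 and 8.26 on the arrays labelled WT crypts and 8.02, 7.38 and 8.22 on those labelled Rb crypts, with the same pair out of place. Chek1 showed no such pattern, at 7.95, 7.89 and 7.81 on arrays labelled WT crypts and 8.08, 8.09 and 7.72 on those labelled Rb crypts. Without WT crypts 3 and Rb crypts 2, 0 genes were still called, where 0.0989% of all genes were. Clspn was then at 1.14 ± 0.22 (adjusted p = 0.0555), Brca1 at 0.71 ± 0.25 (adjusted p = 0.334) and Chek1 at -0.02 ± 0.27.

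**Figure D5:**
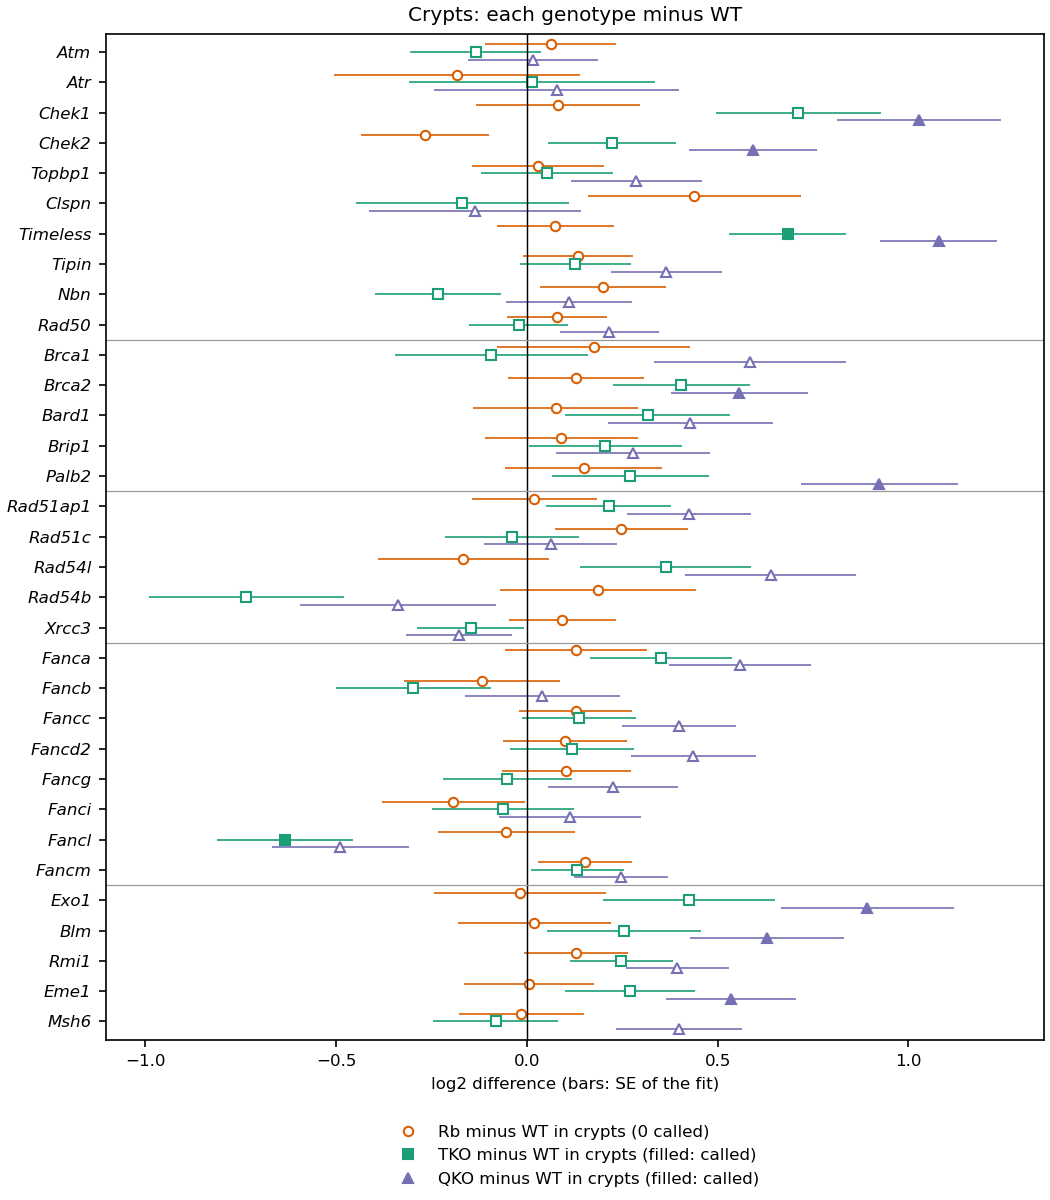
Log2 difference from the arrays labelled WT crypts of each of the 33 genes (rows, grouped by role) in Rb (circles), TKO (squares) and QKO crypts (triangles), with bars of 1 SE and filled symbols for called genes. The differences lie between -0.73 (Rad54b in TKO) and 1.08 (Timeless in QKO), and 0 Rb, 2 TKO and 8 QKO symbols are filled. The 3 differences share the WT crypt arrays.

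In TKO crypts 1 gene was higher than in the arrays labelled WT crypts and 1 lower, where 4.73% of all genes were called (1.93% higher, 2.8% lower). Timeless read 7.5, 7.55 and 7.62 in WT and 8.27, 8.53 and 7.92 in TKO crypts, a rise of 0.68 ± 0.15 (adjusted p = 0.013) with no overlap. Fancl read 8.46, 8.26 and 8.67 in WT and 7.93, 8.10 and 7.46 in TKO crypts, and fell by 0.63 ± 0.18 (adjusted p = 0.0444). Timeless lost its call without WT crypts 2, TKO crypts 1 or TKO crypts 2 and with the mean of its probe sets, and Fancl without any 1 of these groups' arrays but TKO crypts 2. So the count was 0 without WT crypts 2 or TKO crypts 1 and 1 without WT crypts 3 or TKO crypts 3. Without WT crypts 3 and Rb crypts 2 together Timeless remained called (0.72 ± 0.18) and Fancl did not. The kinase gene Atr differed by 0.01 ± 0.32 and Rad50 by -0.02 ± 0.13. In the same comparison 5 of 7 goblet markers (median -0.97) and 1 of 5 Paneth markers were lower.

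In QKO crypts 8 genes were higher than in the arrays labelled WT crypts and 0 lower, where 13.3% of all genes were called (10.3% higher, 3.06% lower). The median was 0.39, against 0.07 over all genes. Timeless, at 8.80, 8.76 and 8.35, rose by 1.08 ± 0.15 (2.11-fold, adjusted p = 0.000114). Chek1 read 7.95, 7.89 and 7.81 in WT and 9.24, 8.85 and 8.64 in QKO crypts and rose by 1.03 ± 0.22. Palb2, at 6.40, 6.5 and 7.02 in WT and 7.51, 7.81 and 7.37 in QKO crypts, rose by 0.92 ± 0.21. For these 3 genes every QKO array lay above every WT array. Exo1 (0.89 ± 0.23), Blm (0.63 ± 0.20), Chek2 (0.59 ± 0.17), Brca2 (0.56 ± 0.18) and Eme1 (0.53 ± 0.17) made up the 8. Atm (0.02 ± 0.17) and Fancb (0.04 ± 0.20) lay nearest to 0.

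Those last 5 lost their calls without 1 array or another, and the count was 4 without WT crypts 1 and 5 without WT crypts 2, QKO crypts 1 or QKO crypts 2. It was 5 with arrays centred on their medians or quantile normalization and 3 with sex as a term. Without WT crypts 3 and Rb crypts 2 it was 9, where 9.04% of all genes were called, but not the same genes. Timeless, Chek1, Palb2 and Chek2 stayed, Exo1, Blm, Brca2 and Eme1 were lost, and Brca1 (0.87 ± 0.22), Fanca, Fancc, Msh6 and Rmi1 were gained. Of the mitosis genes 3 of 13 were lower in QKO than in WT crypts and 0 higher, and of the replication genes 7 of 14 were higher. Goblet markers were lower in 7 of 7 cases (median -1.02), with sums of 14.98 to 15.65 against 16.18 to 16.46, and T cell markers in 4 of 7 (median -1.30), with sums of 9.85 to 10.69 against 11.65 to 13.15. Stem cell markers were lower in 2 of 6 cases and Paneth markers in 1 of 5. The part of other cell types in the crypt differences was not tested.

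Against the arrays labelled Rb crypts 8 genes were higher in QKO crypts and 0 lower, where 17.2% of all genes were called (13.4% higher, 3.78% lower). Timeless (1.01 ± 0.15), Chek1 (0.95 ± 0.22) and Exo1 (0.91 ± 0.23) led, and Atm (-0.05 ± 0.17) and Nbn (-0.09 ± 0.16) lay nearest to 0. The count was 4 without Rb crypts 3, 5 without QKO crypts 2, and 3 with sex as a term. Without WT crypts 3 and Rb crypts 2 there were 6 higher and 1 lower, where 15.2% of all genes were called. Blm and Eme1 were then no longer called, and the gene lower was Clspn (-0.95 ± 0.20). Goblet markers were lower in QKO than on the arrays labelled Rb crypts in 6 of 7 cases and T cell markers in 2 of 7, and enteroendocrine markers higher in 3 of 7. Between QKO and TKO crypts 0 genes were called by limma and 6 had an unadjusted p under 0.05, where 1.61% of all genes were called (1.42% higher, 0.181% lower). The median was 0.24, against 0.08 over all genes. Brca1 differed by 0.68 ± 0.25 (adjusted p = 0.173), and Clspn (0.03 ± 0.28) and Xrcc3 (-0.03 ± 0.14) least.

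The gap between villi and crypts was also taken within each mutant genotype. In Rb mice 9 genes were lower in villi than on the arrays labelled Rb crypts and 1, Rmi1, was higher (0.73 ± 0.14), where 17.3% of all genes were called (7.61% higher, 9.65% lower). The median was -0.25, against -0.03 over all genes. Atr, at 8.09, 8.11 and 7.12 in crypts and 6.21, 6.38 and 6.83 in villi, fell by 1.30 ± 0.32, and Fancd2 and Rad54l by 0.74 each. Chek1 differed by 0.08 ± 0.22 (95% interval -0.37 to 0.53) and Brca1 by 0.45 ± 0.25, while Fancm, at -0.02 ± 0.12, lay nearest to 0. The count of 10 rested on single arrays: it was 3 without Rb crypts 1, 4 without Rb crypts 2, Rb villi 1 or Rb villi 2, and 6 without Rb villi 3. Without WT crypts 3 and Rb crypts 2 it was 4, where 6.34% of all genes were called. Rb crypts held 0 male samples and Rb villi 2, and with sex as a term the count also fell, as given below.

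In TKO mice 17 genes were lower in villi and 0 higher, where 15.4% of all genes were called (6.43% higher, 8.99% lower). The median was -0.59, against 0.00 over all genes. Chek1 fell by 0.97 ± 0.22, Exo1 by 0.96 ± 0.23 and Rad51ap1 by 0.88 ± 0.16, while Rmi1 (-0.01 ± 0.14) and Fancg (0.11 ± 0.17) were not called. The count was 5 without TKO villi 3 or TKO crypts 2, and 8 when only these groups were fitted. In QKO mice 30 genes were lower in villi and 0 higher, where 33.4% of all genes were called (13.5% higher, 19.9% lower). The median was -1.03, against 0.01 over all genes. Rad54l fell by 1.93 ± 0.22, Exo1 by 1.69 ± 0.23 and Palb2 by 1.61 ± 0.21, and 27 of the 30 calls held without each single array. Fancg (-0.14 ± 0.17), Rmi1 (0.23 ± 0.14) and Bard1 (-0.44 ± 0.22) were not called. Fancm (-0.40) lost its call without QKO crypts 2 and had a mean over its probe sets of 0.03.

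Whether genotype effects differed between villi and crypts was tested directly. The effect of Rb loss was larger in villi than in crypts for 19 of the 33 genes and smaller for 0, where 5.22% of all genes were called (4.12% higher, 1.1% lower). The median difference of differences was 0.96, against -0.09 over all genes. Brca1 (2.89 ± 0.36), Clspn (2.41 ± 0.39) and Msh6 (2.40 ± 0.23) had the largest values, and Fancc (0.05 ± 0.21) and Fanca (0.29 ± 0.26) the smallest. Without WT crypts 3 and Rb crypts 2 it was 13 genes, where 4.22% of all genes were called, with Brca1 at 2.36 ± 0.32 and Clspn at 1.70 ± 0.29.

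The effect of the loss of the 3 E2f genes was larger in villi for 14 genes and smaller for 0, where 3.43% of all genes were called (2.69% higher, 0.737% lower). The median was 0.81, against -0.05 over all genes. Brca1 (1.89 ± 0.36), Rad51ap1 (1.82 ± 0.23) and Tipin (1.69 ± 0.21) led, and Rad51c (0.04 ± 0.25) and Bard1 (-0.07 ± 0.31) lay nearest to 0. The count was 5 without WT villi 3, 6 without TKO villi 2 or TKO crypts 3, 7 without TKO villi 1 or TKO crypts 1, and 8 without WT crypts 2 or WT crypts 3. Without WT crypts 3 and Rb crypts 2 it was 9, where 2.73% of all genes were called. Of the 14 calls 5 held without each single array.

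The 33 genes had 73 probe sets, with more than 1 for 22 genes, and no gene had probe sets called in opposite directions in any of the 17 comparisons. In Rb minus WT villi 39 of the 73 were higher and 0 lower, and in TKO minus WT villi 30 and 0. These calls are from a fit over all probe sets. The share of all probe sets called in it is not given here, so these counts have no background beside them. Brca1 had 3 probe sets that rose in Rb villi, by 3.06, 2.42 and 2.59, and a dim one that did not (-0.22). Clspn had a dim second probe set at -0.11. Calls of the brightest probe set therefore need not hold for each probe set of a gene.

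Genes of other repair pathways were read in the same villi. Of 35 further recombination and checkpoint genes 18 were higher in Rb villi (median 0.45) and 11 in TKO villi (median 0.30), with 0 lower. Dna2, a resection nuclease, rose by 2.81 ± 0.24 in Rb villi, and the helicase Hells by 2.40 ± 0.19 in Rb and 2.24 ± 0.19 in TKO villi. Rpa2, a subunit of the protein that coats single-stranded DNA, rose by 1.39 ± 0.17 in TKO villi. Rad52 was not called in either (0.18 ± 0.19 and 0.30 ± 0.19).

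Of 9 genes of non-homologous end joining, the repair route that needs no sister chromatid, 2 were higher and 1 lower in Rb villi (median -0.15), and 0 were called in TKO villi. Those higher were Xrcc6 (0.89 ± 0.15) and Prkdc (0.78 ± 0.18), both of the DNA-PK complex. Of 13 base excision genes 4 were higher and 1 lower in Rb villi and 4 higher in TKO villi, led by Neil3 in Rb (1.66 ± 0.25) and Ung, the uracil glycosylase, in TKO villi (1.74 ± 0.26). Of 14 nucleotide excision genes 1 was higher and 1 lower in Rb villi, Ddb2 (1.28 ± 0.24) and Ercc3 (-0.66 ± 0.13), and 0 were called in TKO villi. Of 4 other mismatch repair genes Pms2 was higher in both (0.64 ± 0.16 and 0.69 ± 0.16) and Msh3 in Rb villi (0.55 ± 0.14). The difference between these pathways and the 33 genes was not tested.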

How the data were processed

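Total RNA of 24 samples was extracted with Trizol and 3 ug was labelled for Affymetrix mouse arrays, per the labels' protocols. The authors deposited log2 values per probe set (2.29 to 14.9). Their summarisation method was not given in the sources used here. The platform table gave 1 gene for 34945 of the 45101 probe sets and several for 932, while 9160 had no name here and 64 were controls. Symbols of 34741 were updated by Entrez identifier. Each of 18193 genes was read from its brightest probe set, with no further normalization, filter or offset.

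A model with 1 mean per group was fitted over all arrays with limma 3.58.1 in R 4.3.3, with variances moderated on an intensity trend (16 residual and 4.86 prior df). P-values were 2-sided and adjusted by Benjamini-Hochberg over all genes within each of 17 comparisons. The number of arrays limits the precision. A summed marker level is the log2 of the summed linear values. Replicates correlated at 0.979 to 0.994. Deviations from group means of same-numbered crypt and villus arrays correlated at 0.545 to 0.64 in TKO and 0.249 to 0.546 in QKO, so those numbers pair arrays by the values. They correlated at 0.002 to 0.125 in WT and -0.235 to 0.064 in Rb, where they do not.

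The genes, lists and tests were chosen with earlier results of these data known. Named in detail were Brca1, Brca2, Atm, Atr, Chek1 and Chek2 and, per comparison, the 3 called genes with the largest differences and the 2 genes with the smallest, with the others named by role. Of further lists, Rad52 and the 2 called genes with the largest differences in Rb and in TKO villi were named, with other examples chosen after their values were seen. Some other repair genes are not reported here. Promoter letters were matched exactly. The alternatives tried were other scalings (quantile, array medians), removal of dim genes, the mean of probe sets, fits of only the groups compared, replicate blocks, a term for sex, omission of each array or of WT crypts 3 with Rb crypts 2, and, added after seeing the data, every probe set. Figures were drawn with matplotlib 3.10.9.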

Additional observations from a re-analysis of the deposited data

Results flagged for a closer look

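Effects that differed between compartments or between genotypes, each tested as a contrast of the same limma fit, drew attention. The effect of Rb loss was larger in villi than in crypts for 19 of the 33 genes, where 5.22% of all genes were called. On the log2 scale the values were 2.89 for Brca1, 2.41 for Clspn and 2.40 for Msh6. Without WT crypts 3 and Rb crypts 2, whose Rb1 went against their labels, it was 13 genes, where 4.22% of all genes were called. The values were then 2.36, 1.70 and 2.13. The effect of the loss of E2f1, E2f2 and E2f3 was larger in villi for 14 genes, where 3.43% of all genes were called. Of these 14 calls 5 held without each single array. Without those 2 arrays it was 9 genes, where 2.73% of all genes were called. With all arrays the values were 1.89 for Brca1, 1.82 for Rad51ap1 and 1.69 for Tipin. In villi the effect of Rb loss was lower in mice without the 3 E2f genes than in mice with them for 25 genes. There 15.4% of all genes were called, and the values were -3.36 for Clspn, -3.18 for Brca1 and -2.66 for Rad54b. Brca1 read 8.20 or more on all Rb villus arrays and 7.39 or less on all WT, TKO and QKO villus arrays. Groups of 3 arrays are too small for a check of single outlying samples.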

How the results depend on the processing

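Over all comparisons and settings, 235 counts of called genes lay within 1.5 times the reported count and 46 did not. With only the groups compared, counts were 0 for QKO minus TKO in villi, 0 for TKO minus WT in crypts, 5 for QKO minus Rb in crypts, 8 for villi minus crypts in TKO and 9 for the TKO effect between compartments. Quantile normalization and centring on medians each gave 2 for QKO minus TKO in villi and 5 for QKO minus WT in crypts. Sex as a term gave 1 for TKO minus WT, 3 for QKO minus WT and 3 for QKO minus Rb in crypts, and 5 for villi minus crypts in Rb. Leaving out WT crypts 3 and Rb crypts 2 gave 1 for TKO minus WT in crypts, 4 for villi minus crypts in Rb and 9 for the TKO effect between compartments. Leaving out each array gave, in villi, 25 to 26 for Rb minus WT, 15 to 23 for TKO minus WT, 14 to 16 for QKO minus WT, 10 to 14 for QKO minus Rb and 0 to 3 for QKO minus TKO. In crypts it gave 0 to 0 for Rb minus WT, 0 to 2 for TKO minus WT, 4 to 7 for QKO minus WT, 4 to 10 for QKO minus Rb and 0 to 1 for QKO minus TKO. For villi minus crypts it gave 28 to 30 in WT, 3 to 14 in Rb, 5 to 18 in TKO and 28 to 31 in QKO. For the differences of effects it gave 14 to 19 (Rb), 5 to 17 (TKO) and 21 to 25 (villi). The replicate block, with the number as a term or with paired TKO and QKO arrays as a random block, moved no count past 1.5 times: Rb minus WT in villi gave 27 and 26, and TKO minus WT in villi 22 and 22. Among values of single genes that were called, 1 changed sign: Fancm, villi minus crypts in QKO, was 0.0263 with the mean of its probe sets instead of -0.40, and the cause was not tested. Of values not called, 117 changed sign in at least 1 setting, with 308 changes in all. Without WT crypts 3 and Rb crypts 2, 16 did, such as Brca1 in TKO minus WT crypts, from -0.09 to 0.19. Centring moved the median difference of all genes by up to -0.21, in QKO minus WT villi.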
